A study of Rattus norvegicus with 16 samples.

Results

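The circadian clock genes examined here are 10 named genes, Per1, Per2, Per3, Nr1d1, Nr1d2, Clock, Npas2, Nfil3, Dbp and Bhlhe41, followed in the retina of newborn rats. A gene was taken as measured where a probe set of the array was annotated with its symbol alone. That held for 9 of the 10 genes, each with 1 probe set, among the 14324 genes measured in all. Nr1d2 was not analysed here. The 8 groups of 2 arrays combine cyclic hyperoxia or room air, post-natal day 6 or 5, and the Sprague Dawley (SD) or Fischer (F344) strain. The study used rats that are prone to and rats that resist oxygen-induced retinopathy, a disturbance of blood vessel growth in the immature retina. Starting within 12 h of birth, the hyperoxia litters were kept with their mothers at 80% oxygen and 21% oxygen by turns, each for 24 h, and control rats of the same age stayed in room air. Each array held RNA of several rats combined into a pool. The design text mentions 3 rats and 2 litters in a way that leaves the make-up of 1 pool unclear. The sources used here give neither the oxygen phase nor the hour of the day at which retinae were taken, nor the lighting.

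The mammalian clock is a feedback loop of transcription. CLOCK or its relative NPAS2 pairs with BMAL1 (the product of Bmal1, also called Arntl) and switches on genes through E-box sequences. Among these genes are the PER and CRY repressors, which close the main loop, and the nuclear receptors NR1D1 (REV-ERB alpha) and NR1D2, which repress Bmal1. DBP activates and NFIL3 represses genes through D-box sequences, and BHLHE41 (DEC2) represses at E-boxes. The mammalian retina has a clock of its own, known for daily rhythms in dopamine, melatonin and the response to light.

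Promoter letters are shown for the 3 measured genes in which one of these elements was found, because the loop described above acts through them. RefSeq promoter windows of the assembly GRCr8 were found for all 10 genes, and the 250 bases before each transcription start were searched on both strands. The only windows of Per1 (chr10:54304126-54304375), Per3 (chr5:166777801-166778050) and Npas2 (chr9:48959315-48959564) lie inside the gene positions given below. The bases before the outer 5' ends of these genes were thus not searched. Capitals mark the matched letters, and each sequence runs 5' to 3' on the gene's own strand, which is the minus strand in each case.
Per2, chr9:99496994-99497243: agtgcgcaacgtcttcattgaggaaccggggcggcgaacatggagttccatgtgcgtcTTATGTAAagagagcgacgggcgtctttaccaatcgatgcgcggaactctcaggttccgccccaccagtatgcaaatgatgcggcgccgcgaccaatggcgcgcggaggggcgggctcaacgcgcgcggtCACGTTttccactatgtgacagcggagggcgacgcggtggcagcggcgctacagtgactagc
Nr1d1, first start, chr10:84231813-84232062: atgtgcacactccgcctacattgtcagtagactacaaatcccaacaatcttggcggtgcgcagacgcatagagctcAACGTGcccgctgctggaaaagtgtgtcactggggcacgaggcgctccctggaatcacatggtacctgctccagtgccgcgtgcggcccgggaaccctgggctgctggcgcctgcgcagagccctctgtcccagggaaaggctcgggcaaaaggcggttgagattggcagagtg
Nr1d1, second start, chr10:84229455-84229704: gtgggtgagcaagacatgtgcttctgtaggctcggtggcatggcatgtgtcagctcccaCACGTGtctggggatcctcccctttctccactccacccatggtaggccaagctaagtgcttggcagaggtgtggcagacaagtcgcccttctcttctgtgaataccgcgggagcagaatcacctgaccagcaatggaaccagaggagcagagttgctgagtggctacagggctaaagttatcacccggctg
Bhlhe41, chr4:180569356-180569605: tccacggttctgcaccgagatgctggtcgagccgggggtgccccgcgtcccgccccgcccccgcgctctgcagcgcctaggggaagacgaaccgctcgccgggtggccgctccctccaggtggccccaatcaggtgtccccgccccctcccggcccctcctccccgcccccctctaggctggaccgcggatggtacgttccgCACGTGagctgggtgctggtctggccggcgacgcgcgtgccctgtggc

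The E-box CACGTG began 48 bases before the Bhlhe41 start and 191 bases before the second Nr1d1 start. In the windows searched it was found for 2 of the 10 genes, in 2 of their 12 windows. It was present in 5.59% of all 33469 promoter windows of that length. The related E-prime box CACGTT lay 62 bases before the Per2 start and, read on the other strand as AACGTG, 174 bases before the first Nr1d1 start, against 4.07% of all windows. The D-box, searched as TTATGTAA or TTACGTAA, lay 192 bases before the Per2 start, against 0.932% of windows. The half-site AGGTCA, bound by REV-ERB and ROR receptors, was found only for Nr1d2 among the 10 genes, 187 bases before its start, against 14.1% of windows. The cyclic AMP element TGACGTCA was found in 0 of the 12 windows of the 10 genes, against 1.59% of all windows. The Bhlhe41 E-box, the Per2 E-prime box and the second Nr1d1 window also lie inside the gene positions given below. They are thus downstream of the outer 5' ends of these genes. None of the motifs searched is contained in another. A match is a description of the letters and not a bound site.

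Values are deposited log2 expression values. Array medians lay between 5.45 and 5.52, and arrays of a pair correlated with Pearson's r between 0.984 and 0.996 over all probe sets. The lowest r belonged to the F344 hyperoxia pair of day 6, whose replicate 2 had the highest median and stood apart from the other arrays. Several markers fitted the retina label. The photoreceptor regulator Crx ranged from 10.55 to 11.02, the rod protein gene Sag from 10.68 to 11.89 and Rlbp1 of Muller glia from 10.06 to 10.99. The ganglion cell marker Pou4f1 ranged from 5.21 to 5.93, near the array medians. As list means, rods ranged from 9.17 to 10.31, Muller glia from 8.18 to 8.61 and astrocytes from 5.38 to 5.67. The mean of the lens markers ranged from 4.58 to 5.69 and that of skeletal muscle from 5.12 to 5.43. In these whole-retina pools, fewer cells of a type and less RNA per cell cannot be told apart. The labels call the replicates biological but tie none to a litter, so p-values measure the spread between these pools.

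**Figure D1:**
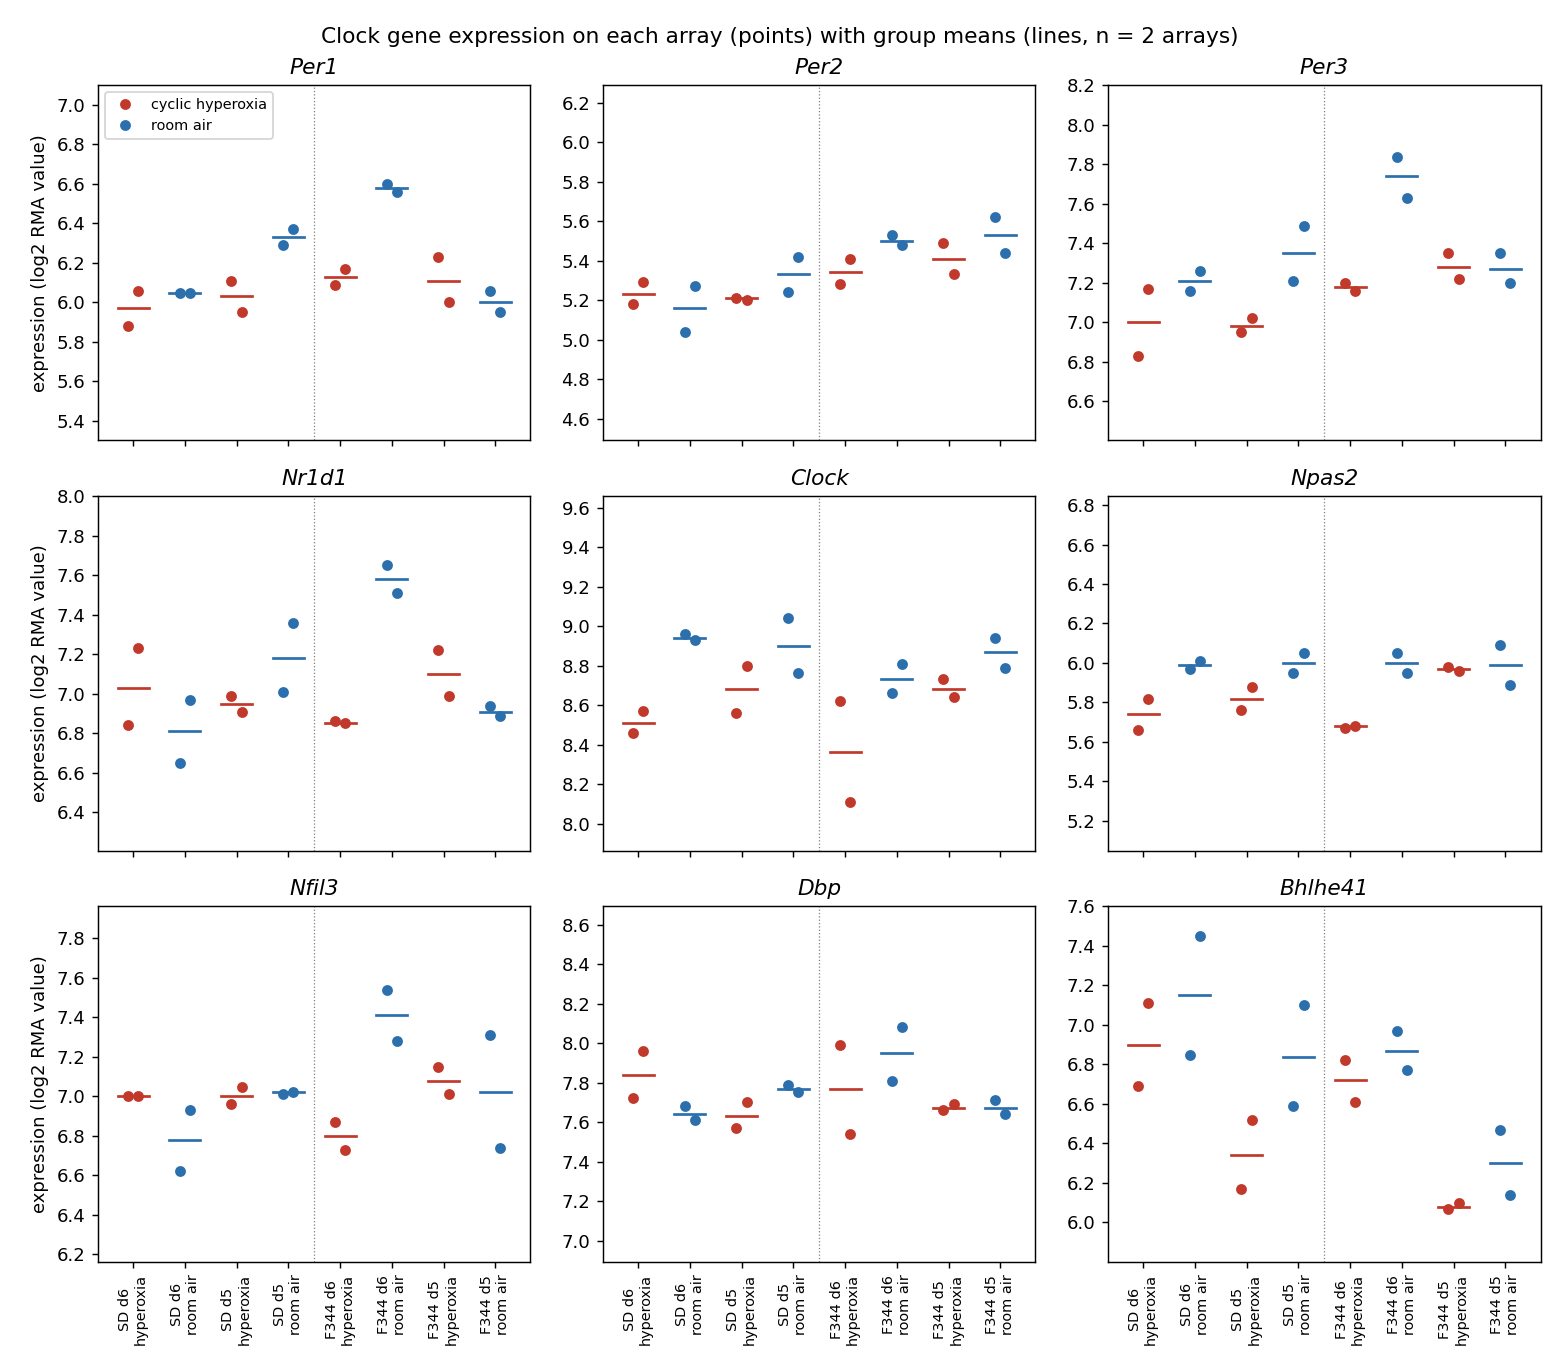
Expression of the 9 clock genes on each of the 16 arrays (vertical axis, log2 RMA value; points, arrays; lines, means of 2 arrays), by strain, day (d6, d5) and exposure. For Per1, Per3, Nr1d1 and Nfil3 the F344 room air group of day 6 had the highest mean, with both arrays above all arrays of the next group.

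Of the 9 measured clock genes, 4 differed among the 8 groups by limma's moderated F test (adjusted p under 0.05 over all genes), and 21.8% of all genes did. They were Per1 (probe set 10734882, chr10:54299002-54313804 in GRCr8, adjusted p = 0.0126), Per3 (10881861, chr5:166740914-166778243, adjusted p = 0.0147), Bhlhe41 (10867026, chr4:180565003-180569415, adjusted p = 0.0149) and Nr1d1 (10746955, chr10:84224599-84231812, adjusted p = 0.0241). Clock (10772249, chr14:32262747-32346872) had an adjusted p of 0.0899, Npas2 (10922745, chr9:48959225-49138036) of 0.116 and Nfil3 (10794225, chr17:12432376-12447605) of 0.119. Per2 (10929842, chr9:99454828-99497069) had an adjusted p of 0.154 and Dbp (10706953, chr1:105312256-105317205) of 0.534. Bhlhe41 was called whichever array was left out. Without replicate 1 of F344 room air day 6 the adjusted p was 0.0877 for Per1, 0.114 for Per3 and 0.168 for Nr1d1, and 1 gene was called. Without its replicate 2 it was 0.0734 for Per1 and 0.095 for Nr1d1.

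The order of the groups set 1 of them apart. F344 retina in room air on day 6 had the highest of the 8 means for 6 of the 9 genes, Per1, Per3, Nr1d1, Npas2, Nfil3 and Dbp, and 17.4% of all genes had their highest mean there. For Npas2 and Dbp the arrays of that group overlapped those of the next group in the order. Clock and Bhlhe41 had their highest mean in SD room air on day 6, and Per2 in F344 room air on day 5, in each case with arrays overlapping those of the next group. The lowest mean was in SD hyperoxia on day 6 for Per1, in SD hyperoxia on day 5 for Per3 and Dbp, in SD room air on day 6 for Per2, Nr1d1 and Nfil3, in F344 hyperoxia on day 6 for Clock and Npas2, and in F344 hyperoxia on day 5 for Bhlhe41. Group means of Bhlhe41 spanned 1.07 log2 units and those of Dbp 0.31. The mean over the 9 genes on an array lay between 7.12 and 7.19 in F344 room air on day 6, and between 6.69 and 7.03 on the other 14 arrays.

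The first question of the design was what cyclic hyperoxia does in each strain. In F344 retina on day 6, Nr1d1, the repressor of Bmal1, was 1.66-fold lower under hyperoxia. It read 6.86 and 6.85 on the F344 hyperoxia arrays of day 6, against 7.65 and 7.51 in room air. The arrays did not overlap (log2 difference -0.73 ± 0.15 SE, n = 2 arrays per group, limma adjusted p = 0.0388). It was the only clock gene called, and 0.845% of all genes were called lower there. The call ended without either array of SD hyperoxia day 5 (adjusted p = 0.0656 for each), which enter only through the shared estimate of the spread. It also ended without replicate 2 of F344 hyperoxia day 6 (0.132) and without replicate 1 (0.259) or 2 (0.206) of F344 room air day 6, and under 5 of the other settings tried, with adjusted p between 0.0574 and 0.28.

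The other 8 clock genes also had negative estimates in F344 on day 6, and none of those passed the test. Per1, a repressor of the main loop, read 6.09 and 6.17 under hyperoxia, against 6.60 and 6.56 in room air (-0.46 ± 0.12, adjusted p = 0.0626). Its relative Per3 read 7.20 and 7.16 under hyperoxia, against 7.84 and 7.63 in room air (-0.56 ± 0.14, adjusted p = 0.0561). In both genes the hyperoxia arrays lay below the room air arrays. The D-box repressor gene Nfil3 read 6.87 and 6.73 under hyperoxia, against 7.54 and 7.28 in room air (-0.61 ± 0.16, adjusted p = 0.0684). Npas2 read 5.67 and 5.68 under hyperoxia, against 6.05 and 5.95 in room air (-0.33 ± 0.11, adjusted p = 0.136). Neither of these genes had overlapping arrays. Clock read 8.62 and 8.11 under hyperoxia, against 8.66 and 8.81 in room air (-0.37 ± 0.16, adjusted p = 0.231), and its low value came from the array that stood apart. Without replicate 1 of F344 hyperoxia day 6, which leaves that array alone in its group, Clock passed (-0.63, adjusted p = 0.0198), as did Per3 (-0.58, 0.037) and Nfil3 (-0.68, 0.0398). Nfil3 also passed without either array of F344 room air day 5 (adjusted p = 0.0386 for each). Per2, Dbp and Bhlhe41 differed by -0.16, -0.18 and -0.16 (adjusted p = 0.519, 0.553 and 0.748). The median over the 9 genes was -0.37, against -0.004 over all genes, of which 7286 of 14324 were negative. In 7 of the 9 the hyperoxia arrays lay below the room air arrays, and this held for 22% of all genes.

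In SD retina on day 6 no clock gene passed the test by limma, 2 had an unadjusted p under 0.05, and 2.79% of all genes were called. These 2 were the activator genes of the main loop, and the larger p, 0.0395 for Npas2, ranked 2386 among the 14324 genes. Clock read 8.46 and 8.57 under hyperoxia, against 8.96 and 8.93 in room air (-0.43 ± 0.16, adjusted p = 0.146). Npas2 read 5.66 and 5.82 under hyperoxia, against 5.97 and 6.01 in room air (-0.25 ± 0.11, adjusted p = 0.237). In both the hyperoxia arrays lay below the room air arrays. Without either F344 hyperoxia array of day 6 in the shared estimate of the spread, Clock passed at an adjusted p of 0.0498. Nr1d1 read 6.84 and 7.23 under hyperoxia, against 6.65 and 6.97 in room air, which overlap (0.22 ± 0.15, adjusted p = 0.486). Nfil3 read 7.0 on both arrays under hyperoxia, against 6.62 and 6.93 in room air (0.22 ± 0.16, adjusted p = 0.521). The SD estimates of Nr1d1, Nfil3, Dbp and Per2 were thus positive, and the median over the 9 genes was -0.08.

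**Figure D2:**
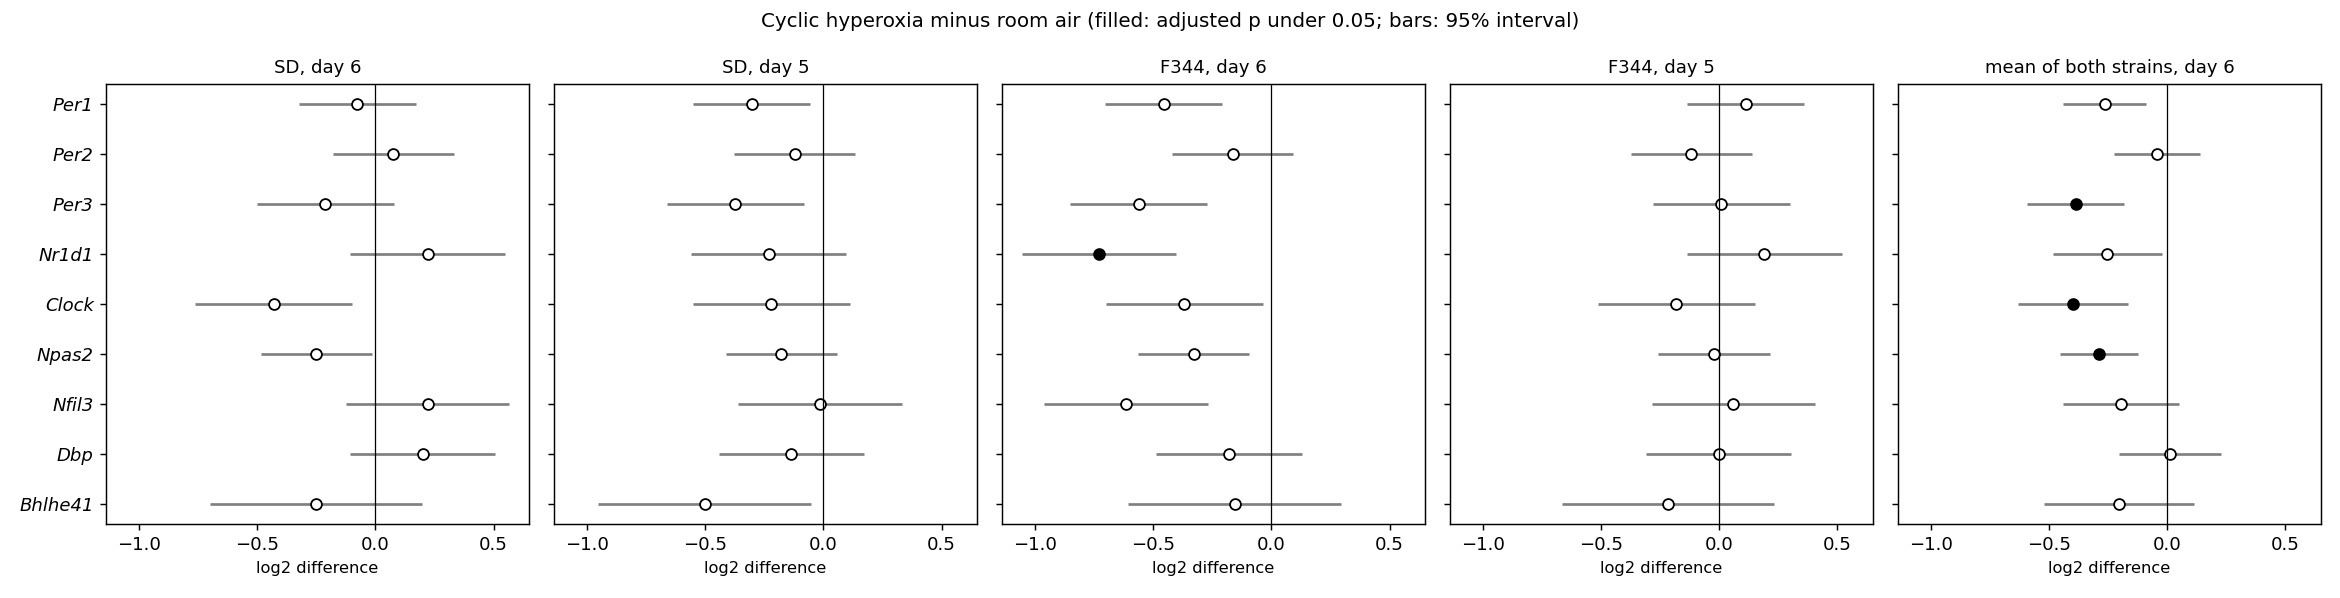
Cyclic hyperoxia minus room air for the 9 clock genes (horizontal axis, log2 difference; bars, 95% intervals; filled points, adjusted p under 0.05), in SD and F344 on days 6 and 5 and as the mean of both strains on day 6. The filled points are Nr1d1 in F344 on day 6, and Per3, Clock and Npas2 in the mean of both strains.

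Averaged over both strains on day 6, Per3, Clock and Npas2 were lower under hyperoxia, 3 of the 9 genes, and 2.73% of all genes were called lower. Per3 averaged 7.09 over the 4 hyperoxia arrays and 7.47 over the 4 room air arrays (-0.39 ± 0.10, 1.31-fold lower, adjusted p = 0.028). Clock averaged 8.44 under hyperoxia and 8.84 in room air (-0.40 ± 0.11, 1.32-fold lower, adjusted p = 0.0424). Npas2 averaged 5.71 under hyperoxia and 6.00 in room air (-0.29 ± 0.08, adjusted p = 0.04), near the array medians, so its fold is not given. For Clock and Npas2 the highest of the 4 hyperoxia arrays lay below the lowest of the 4 room air arrays, while the arrays of Per3 overlapped, also within SD. Per1 was close to the threshold (-0.27 ± 0.08, adjusted p = 0.0637). Nr1d1, with estimates of opposite sign in the 2 strains, did not pass (-0.25 ± 0.11, adjusted p = 0.169). The estimate of Dbp was 0.01, with a 95% interval from -0.21 to 0.23.

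These 3 calls lie close to the threshold. Per3 lost its call without replicate 2 of F344 hyperoxia day 6 (adjusted p = 0.0661), replicate 1 (0.113) or 2 (0.0597) of F344 room air day 6, replicate 1 of SD hyperoxia day 6 (0.167), or replicate 1 (0.0532) or 2 (0.0662) of SD room air day 6. Clock lost it without any one hyperoxia array of day 5 (0.0538 in F344, 0.055 in SD) and without any one array of day 6 except replicate 1 of F344 hyperoxia, where the adjusted p reached 0.185 without replicate 1 of SD hyperoxia. Without replicate 2 of F344 hyperoxia day 6 the Clock difference was -0.27. Npas2 lost it without any one hyperoxia array of day 5 (0.0519 in F344, 0.0551 in SD) and without any one array of day 6 except replicate 1 of F344 hyperoxia and replicate 2 of SD hyperoxia, with 0.19 at most. Array weights also ended all 3 calls (adjusted p = 0.069 for Per3, 0.0633 for Clock and 0.0839 for Npas2), a trend in the spread those of Clock (0.0531) and Npas2 (0.0622), every probe set tested on its own that of Clock (0.0532), and centring that of Npas2 (0.0763).

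On day 5 no clock gene passed in either strain or in their mean by limma. In F344, 0 of the 9 had an unadjusted p under 0.05, 0.126% of all genes were called, and the largest differences were -0.22 for Bhlhe41 and 0.19 for Nr1d1. In SD all 9 estimates were negative with a median of -0.22, against 0.006 over all genes, and 0.0628% of all genes were called. Hyperoxia arrays lay below room air arrays for 7 of the 9 genes in SD, and for 21.5% of all genes. The 3 genes with an unadjusted p under 0.05 were Per1, Per3 and Bhlhe41. The largest p of the 3, 0.0308 for Bhlhe41 by limma, ranked 858 among the 14324 genes. Per1 read 6.11 and 5.95 under hyperoxia, against 6.29 and 6.37 in room air (-0.30 ± 0.12, adjusted p = 0.483). Per3 read 6.95 and 7.02 under hyperoxia, against 7.21 and 7.49 in room air (-0.37 ± 0.14, adjusted p = 0.453). Bhlhe41 read 6.17 and 6.52 under hyperoxia, against 6.59 and 7.10 in room air (-0.50 ± 0.21, adjusted p = 0.514). In the mean of both strains Bhlhe41 alone had an unadjusted p under 0.05 (-0.36 ± 0.15, adjusted p = 0.382), and 0.209% of all genes were called.

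The study set a prone strain against a resistant one, so the difference of the oxygen effects between strains (SD minus F344) was tested directly. On day 6, 0 clock genes passed by limma, 3 had an unadjusted p under 0.05, and 0.0559% of all genes passed. The largest p of the 3, 0.0355 for Per1, ranked 1328 among the 14324 genes. For Nr1d1 the oxygen effect was 0.22 in SD and -0.73 in F344, a difference of 0.95 ± 0.22 (adjusted p = 0.0993). For Nfil3 it was 0.22 in SD and -0.61 in F344, a difference of 0.84 ± 0.23 (adjusted p = 0.151). For Per1 it was -0.08 in SD and -0.46 in F344, a difference of 0.38 ± 0.16 (adjusted p = 0.382). Clock and Npas2, with oxygen effects of like sign, differed between strains by -0.06 (95% interval -0.53 to 0.41) and 0.08 (-0.25 to 0.41). On day 5, 0 clock genes and 0% of all genes passed, and Per1 alone had an unadjusted p under 0.05 (-0.41 ± 0.16, adjusted p = 0.807).

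The oxygen effect was also compared between days (day 6 minus day 5), which may differ in oxygen phase as well as age. In F344, 0 clock genes passed by limma, 4 had an unadjusted p under 0.05, and 1.02% of all genes passed. The largest p of the 4, 0.0101 for Nfil3, ranked 850 among the 14324 genes. The 4 were Nr1d1 (-0.92 ± 0.22, adjusted p = 0.0596), Per1 (-0.57, 0.111), Per3 (-0.57, 0.166) and Nfil3 (-0.68, 0.17). Nr1d1 passed without either SD room air array of day 5 (0.0488 for each) or day 6 (0.0453 for each), which again enter only through the spread. In SD, 0 clock genes passed, 0 had an unadjusted p under 0.05, and 0.112% of all genes passed. In the mean of both strains, 0 passed, 0 had an unadjusted p under 0.05, and 0.182% of all genes passed.

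Days were compared as day 6 minus day 5. In the hyperoxia litters oxygen changed every 24 h, so age and oxygen phase cannot be told apart there. Under hyperoxia, Bhlhe41, the E-box repressor gene, was 1.51-fold higher on day 6 over both strains. It read 6.69 and 7.11 in SD and 6.82 and 6.61 in F344 on day 6, against 6.17 and 6.52 in SD and 6.07 and 6.10 in F344 on day 5. All 4 arrays of day 6 lay above all 4 of day 5 (0.59 ± 0.15, adjusted p = 0.0312). It was the 1 clock gene called, and 2.1% of all genes were called higher. The call ended without replicate 1 (adjusted p = 0.0948) or 2 (0.0848) of F344 hyperoxia day 5, replicate 1 of SD hyperoxia day 5 (0.139) or replicate 2 of SD hyperoxia day 6 (0.135), and with every probe set tested on its own (0.0515). Clock and Npas2 differed by -0.24 and -0.19 (adjusted p = 0.253 and 0.209). Without replicate 1 of F344 hyperoxia day 6, Clock also passed (-0.37, adjusted p = 0.0235). In room air over both strains, 0 clock genes passed by limma, Bhlhe41 alone had an unadjusted p under 0.05 (0.44 ± 0.15, adjusted p = 0.141), and 3% of all genes passed. Without replicate 1 of SD room air day 6, Bhlhe41 passed (0.59, adjusted p = 0.0419).

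The room air groups were also compared between days within each strain, a comparison added after the values were seen. In F344, Per1, Per3 and Nr1d1 were higher on day 6, 3 of the 9 genes, and 4.82% of all genes were called higher. Per1 read 6.60 and 6.56 on day 6, against 6.06 and 5.95 on day 5 (0.58 ± 0.12, adjusted p = 0.00807). Its day 5 values lie near the array medians, so its fold is not given. Nr1d1 read 7.65 and 7.51 on day 6, against 6.94 and 6.89 on day 5 (0.67 ± 0.15, 1.59-fold, adjusted p = 0.0156). Per3 read 7.84 and 7.63 on day 6, against 7.35 and 7.20 on day 5 (0.46 ± 0.14, 1.38-fold, adjusted p = 0.0484). The arrays of the 2 days did not overlap in these 3 genes. Bhlhe41 and Nfil3 had differences of 0.57 and 0.39 (adjusted p = 0.114 and 0.161).

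The calls in F344 room air rest on few arrays. Without replicate 1 or 2 of F344 room air day 6 the adjusted p was 0.0686 and 0.0699 for Per1, 0.127 and 0.0808 for Nr1d1, and 0.308 and 0.12 for Per3. Without replicate 1 or 2 of F344 room air day 5 it was 0.0854 and 0.0584 for Nr1d1, and 0.117 and 0.198 for Per3, while Per1 kept its call. Per3 was also above the threshold without any one array of F344 hyperoxia day 5 (0.0622), SD hyperoxia day 5 (0.069) or SD room air day 6 (0.0507), with every probe set tested on its own (0.0694), with a trend in the spread (0.0744), with centring (0.0803) and with the replicate number as a block (0.0573). These differences share the F344 room air arrays of day 6 with the oxygen effect in F344 on day 6, so the comparisons are not independent.

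**Figure D3:**
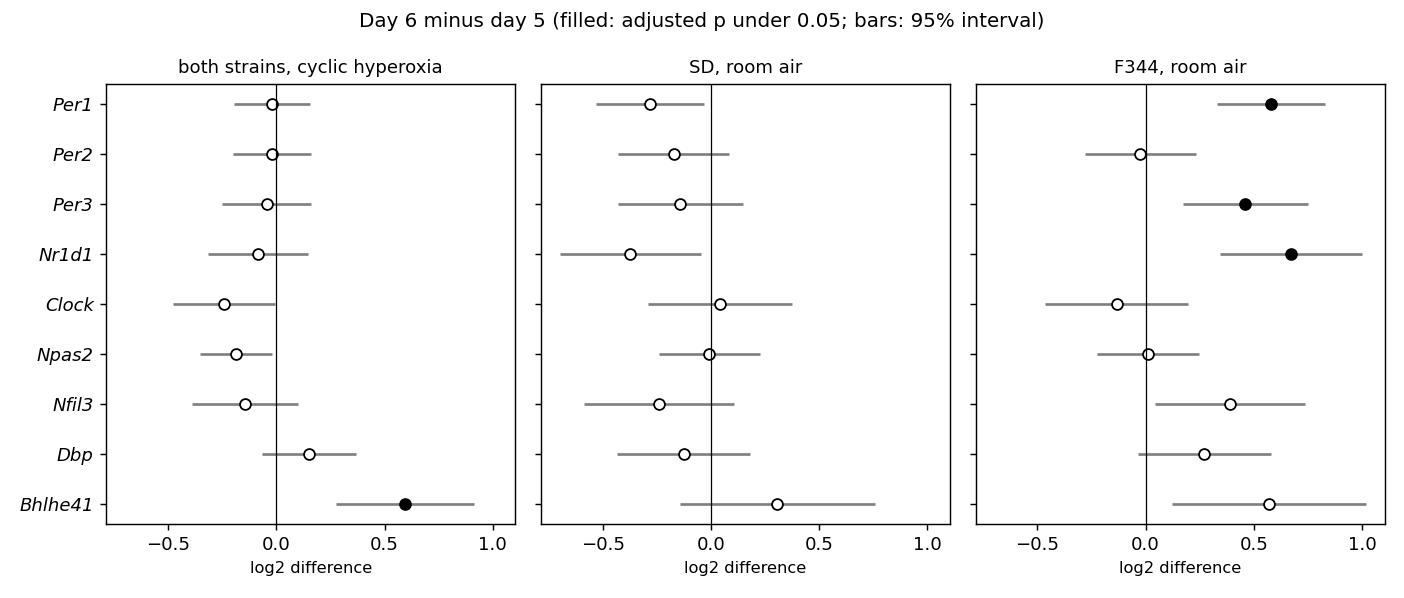
Day 6 minus day 5 for the 9 clock genes (horizontal axis, log2 difference; bars, 95% intervals; filled points, adjusted p under 0.05), under cyclic hyperoxia in the mean of both strains, and in room air in SD and in F344. Bhlhe41 is filled under hyperoxia, and Per1, Per3 and Nr1d1 are filled in F344 room air, where the SD estimates of the same 3 genes are negative.

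In SD retina in room air, 0 clock genes and 0% of all genes differed between days by limma, and 2 clock genes had an unadjusted p under 0.05. The larger p of these 2, 0.0287 for Nr1d1, ranked 453 among the 14324 genes. Per1 read 6.05 and 6.05 on day 6, against 6.29 and 6.37 on day 5 (-0.28 ± 0.12, adjusted p = 0.897). Nr1d1 read 6.65 and 6.97 on day 6, against 7.01 and 7.36 on day 5 (-0.37 ± 0.15, adjusted p = 0.897). Both genes were thus at a lower mean on day 6 in SD and at a higher mean on day 6 in F344. The difference of the day differences (SD minus F344) was -0.86 ± 0.16 for Per1 (adjusted p = 0.0738) and -1.04 ± 0.22 for Nr1d1 (adjusted p = 0.0757). For this difference 0 clock genes passed, 4 had an unadjusted p under 0.05, and 0.0559% of all genes passed. The largest p of the 4, 0.015 for Nfil3 by limma, ranked 964 among the 14324 genes. Per1 and Nr1d1 both passed without replicate 1 of SD room air day 5 (0.0406 for Per1, 0.0382 for Nr1d1) and without either F344 hyperoxia array of day 6 (0.0371 for Per1, 0.0455 for Nr1d1). Under hyperoxia the same difference, also added after the values were seen, passed for 0 clock genes and 0% of all genes, and 0 clock genes had an unadjusted p under 0.05.

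Between strains, 0 clock genes passed in room air by limma over both days (SD minus F344), 5 had an unadjusted p under 0.05, and 9.35% of all genes passed. A p under 0.05 was common here: the largest of the 5, 0.0368 for Nr1d1, ranked 2961 among the 14324 genes. Per2, the second of the PER repressors, averaged 5.24 in SD and 5.52 in F344 (-0.27 ± 0.09, adjusted p = 0.0566), with the SD arrays below the F344 arrays. These values lie near the array medians, so no fold is given. Nfil3 averaged 6.90 in SD and 7.22 in F344 (-0.32 ± 0.12, adjusted p = 0.0995). Bhlhe41 averaged 6.997 in SD and 6.59 in F344 (0.41 ± 0.15, adjusted p = 0.104). Leaving out 1 array brought Per2 (0.0393 without either F344 hyperoxia array of day 6, 0.0489 without replicate 2 of SD room air day 6), Nfil3 (-0.46, 0.0203 without replicate 2 of F344 room air day 5) and Bhlhe41 (0.56, 0.0332 without replicate 1 of SD room air day 6) under the threshold. Under hyperoxia 0 clock genes passed, Per3 alone had an unadjusted p under 0.05 (-0.24 ± 0.10, adjusted p = 0.14), and 8.96% of all genes passed.

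Patterns over the 16 arrays were compared as a description, since the arrays share groups and normalization. Per1 and Per3 (Pearson's r = 0.857), Per1 and Nr1d1 (0.846), Per3 and Nr1d1 (0.808) and Nr1d1 and Nfil3 (0.779) varied together. Clock and Npas2 had an r of 0.717, while Clock with Nr1d1 had 0.033 and Clock with Per1 0.087. Bhlhe41 had no r above 0.345 with another member, its highest being with Dbp. The lowest of the 36 pairs was Per2 with Bhlhe41, at -0.158.

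**Figure D4:**
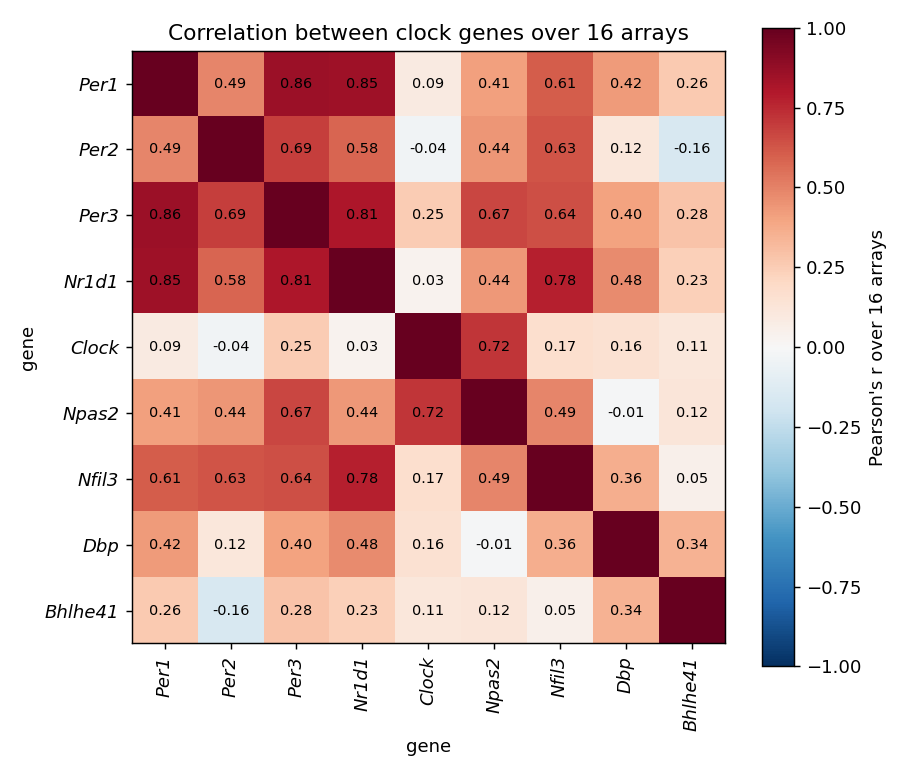
Pearson's r between each pair of the 9 measured clock genes over the 16 arrays (colour and printed value, both axes list genes). Per1, Per3 and Nr1d1 have r between 0.81 and 0.86 with each other, and Clock has its highest r, 0.72, with Npas2.

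Outside the list, the 3 genes most like each of these in pattern over the 16 arrays were as follows. For Per1 they were Cc2d1a (r = 0.918), Sez6l2 and Gga1, for Per3 Sec24a (0.936), Leng8 and Foxp1, and for Nr1d1 Atxn7l2 (0.918), Rab5b and Pias3. For Clock they were N4bp2l2 (0.962), Dcaf8 and Nrdc, for Npas2 Lkaaear1 (0.913), Tbc1d5 and Rb1, and for Bhlhe41 Ptpn14 (0.910), Dab1 and Camk4. For Per2 they were Tsc1 (0.877), Etv6 and Pprc1, for Nfil3 Mrps2 (0.859), Zdhhc3 and Clasrp, and for Dbp Kctd15 (0.852), Hapln2 and Or4f57.

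Of 26 further clock symbols listed, 16 were measured, and 5 differed among the 8 groups (Bhlhe40, Timeless, Tipin, Nampt and Wee1), where 21.8% of all genes did. Tipin did not pass without replicate 2 of F344 room air day 6 (adjusted p = 0.086). Nampt (0.0475) did not pass in 11 of the 16 fits with 1 array left out: without any one array of day 5 except replicate 2 of F344 room air (0.0627 to 0.144), and without any one F344 room air or SD hyperoxia array of day 6 (0.0809 to 0.0954). It also did not pass with every probe set tested on its own (0.0672), with a trend in the spread (0.0573) or with the replicate block (0.0506). Bmal1, the partner of CLOCK and NPAS2, ranged from 9.71 to 10.02 over all arrays (F test adjusted p = 0.787). Its oxygen effect on day 6 was 0.02 ± 0.12 in SD and -0.12 ± 0.12 in F344. Among the CRY repressors, Cry2 had -0.31 ± 0.10 under hyperoxia on day 6 over both strains (adjusted p = 0.0809) and Cry1 had -0.20 ± 0.11 (adjusted p = 0.306). In F344 on day 6, 0 of the 16 passed by limma, 6 had an unadjusted p under 0.05, and 12 estimates were negative with a median of -0.12. The median and the number of negative estimates over all genes are given above for the same comparison. By limma, the largest p of the 6, 0.032 for Cry1, ranked 1979 among the 14324 genes. The lowest were Wee1 (-0.44) and Fbxw11 (-0.43), and the highest Nampt (0.43) and Tipin (0.35).

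Bhlhe40, the close relative of Bhlhe41 and also on the hypoxia-responsive list, was the 1 gene of the 16 called under hyperoxia in SD on day 6, where 2.23% of all genes were called higher. It read 6.13 and 6.18 under hyperoxia, against 5.53 and 5.61 in room air (0.58 ± 0.14, adjusted p = 0.0354), near the array medians. The call held in 8 of the 16 fits with 1 array left out. It ended without any one SD array of day 6 (0.0762 to 0.289), SD hyperoxia array of day 5 (0.0569) or F344 room air array of day 6 (0.0552). In F344 on day 6 Bhlhe40 read 5.78 and 5.43 under hyperoxia, against 5.63 and 5.52 in room air (0.03 ± 0.14), and the difference between strains was 0.55 ± 0.20 (adjusted p = 0.266).

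Under hyperoxia, 4 of the 16 differed between days. Bhlhe40 (0.65, adjusted p = 0.000846) and Nampt, of NAD synthesis (0.46, 0.0279), were higher on day 6, as were 2.1% of all genes. Wee1, a cell cycle kinase gene (-0.92, adjusted p = 0.000123), and Timeless, of the replication fork (-0.54, 0.00429), were lower, as were 2.7% of all genes. The calls of Bhlhe40, Wee1 and Timeless held with each array left out, and that of Nampt ended without any one hyperoxia array of day 5 or SD hyperoxia array of day 6 (0.0629 to 0.111).

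In room air over both strains, 3 of the 16 were called lower on day 6, as were 1.71% of all genes. They were Wee1 (-0.56, adjusted p = 0.0155), Timeless (-0.45, 0.0258) and Tipin, the partner of Timeless (-0.58, 0.0478). The calls of Wee1 and Timeless ended without replicate 1 of F344 room air day 5 (0.0848 for Wee1, 0.0966 for Timeless), replicate 1 of SD room air day 5 (0.1 and 0.152), replicate 1 (0.0503 and 0.115) or 2 (0.079 and 0.0567) of F344 room air day 6 or replicate 2 of SD room air day 6 (0.0682 and 0.116). Tipin passed in 3 of the 16 fits only, those without replicate 1 or 2 of F344 hyperoxia day 6 or replicate 2 of F344 room air day 5. In the other 13 its adjusted p was 0.0576 to 0.219, and without replicate 1 of F344 room air day 5 the difference was -0.38. Tipin also did not pass with every probe set tested on its own (0.0761) or with the replicate block (0.0622).

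Between strains, Nono, an RNA-binding protein gene, was the 1 gene of the 16 called under hyperoxia (SD minus F344, 0.31, adjusted p = 0.0274), and 5.18% of all genes were called higher in SD. The call ended without replicate 2 of F344 hyperoxia day 5 (0.141) or day 6 (0.0517), and without replicate 1 (0.0793) or 2 (0.0891) of SD hyperoxia day 5 or replicate 1 (0.0952) or 2 (0.0692) of SD hyperoxia day 6.

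Further lists covered genes that respond to glucocorticoids, to activity and to oxygen. Of 12 glucocorticoid-responsive genes measured, 0 passed for the oxygen effect on day 6 in either strain by limma (3 in SD and 1 in F344 had an unadjusted p under 0.05), with medians of -0.03 in SD and -0.01 in F344. Of 17 immediate early genes, 0 passed in either strain on day 6 by limma (3 in SD and 4 in F344 had an unadjusted p under 0.05). Such a p was common on day 6. By limma, a p of 0.0395 ranked 2386 in SD and one of 0.032 ranked 1979 in F344, among 14324 genes. In F344 room air, where Per1, Per3 and Nr1d1 were higher on day 6, so were 3 of these 17 transcription factor and signalling genes, beside the 4.82% of all genes. They were Jund (0.62 ± 0.11, adjusted p = 0.00552), Nr4a1 (0.45 ± 0.11, 0.0236) and Egr1 (0.73 ± 0.21, 0.0427), and the median of the list was 0.13, against 0.015 over all genes. Jund did not pass without replicate 1 of F344 room air day 5 (0.059) or replicate 2 of F344 room air day 6 (0.0747). Nr4a1 did not pass without replicate 1 of F344 room air day 5 (0.15) or replicate 1 (0.0951) or 2 (0.175) of F344 room air day 6. Egr1 did not pass without any one F344 room air array (0.114 to 0.254), hyperoxia array of day 5 (0.0571 in F344, 0.062 in SD) or SD hyperoxia array of day 6 (0.0558).

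Of 22 hypoxia-responsive genes, 11 were called lower under hyperoxia on day 5 over both strains, where 0 clock genes passed by limma and 0.209% of all genes were called, all of them lower. They were Egln3, Ak4, Pfkfb3, Pdk1, Bnip3, Vegfa, Slc16a3, Ankrd37, P4ha1, Pgk1 and Hk2, with differences from -1.50 for Slc16a3 to -0.59 for Pgk1. The median of the list was -0.59, against 0.009 over all genes. Among these 11, Hk2 (adjusted p = 0.0452) did not pass without any one array of day 5 except replicate 2 of SD room air (0.056 to 0.261), or without any one F344 room air (0.0531) or SD hyperoxia (0.0982) array of day 6. Pgk1 (0.0141) did not pass without replicate 2 of F344 hyperoxia (0.108), replicate 1 of F344 room air (0.0776), replicate 2 of SD hyperoxia (0.115) or replicate 1 (0.0829) or 2 (0.0584) of SD room air, all of day 5. The other 9 passed with each array left out.

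On day 6 the hypoxia-responsive genes called were higher under hyperoxia. In SD they were 4 of 22, Adm (0.83 ± 0.14, adjusted p = 0.0123), Egln3 (0.85 ± 0.15, 0.0125), Bhlhe40 and Pdk1 (0.44 ± 0.11, 0.0491), with a list median of 0.33, against -0.006 over all genes, of which 2.23% were called higher. In F344 it was 1 of 22, Ak4 (0.88 ± 0.15, adjusted p = 0.0191), with a list median of 0.17 and 0.342% of all genes called higher. Adm and Egln3 did not pass without replicate 1 (0.135 for each) or 2 (0.0745 for Adm, 0.0777 for Egln3) of SD hyperoxia day 6 or replicate 1 of SD room air day 6 (0.0962 and 0.11). Pdk1 passed in 2 of the 16 fits with 1 array left out, those without either F344 hyperoxia array of day 6, and reached 0.287 in the others. Ak4 did not pass without replicate 2 of F344 hyperoxia day 6 (0.109) or replicate 1 (0.236) or 2 (0.134) of F344 room air day 6.

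Markers of other cells moved with some of these differences. The mean of the 9 amacrine and horizontal cell markers was 8.05 to 8.09 in F344 hyperoxia on day 6, against 8.26 to 8.33 in F344 room air on day 6, the group in which Nr1d1, Per1 and Per3 had their highest means. It was 8.09 to 8.23 in F344 room air on day 5. In SD room air it was 8.06 to 8.21 on day 6, against 8.22 to 8.34 on day 5. Other neuron lists were also higher on day 6 than on day 5 in F344 room air. The mean of 7 of the 8 ganglion cell markers was 7.97 to 8.07, against 7.52 to 7.77. That of 5 of the 8 bipolar cell markers was 6.78 on both arrays, against 6.26 to 6.46. Both lists overlapped between hyperoxia and room air in F344 on day 6, and Muller glia overlapped between the days. The mean of 7 of the 10 rod markers was 9.64 to 10.31 on day 6, against 9.17 to 9.81 on day 5. That of 9 of the 10 progenitor and cell cycle markers was 7.81 to 8.42 on day 6, against 8.37 to 9.28 on day 5, alongside the differences of Bhlhe41, Wee1, Timeless and Tipin. Means of vascular markers were lower under hyperoxia in SD on day 6, while in F344 their ranges overlapped. Per3, Clock and Npas2 were called in the mean oxygen effect of both strains on that day. The mean of 6 of the 8 endothelial markers was 5.03 to 5.04 in SD hyperoxia, against 5.47 to 5.48 in SD room air, and 5.05 to 5.39 in F344 hyperoxia, against 5.34 to 5.36 in F344 room air. Over both strains all 6 estimates were negative with a median of -0.26, and 2 were called lower, as were 2.73% of all genes. The mean of 5 of the 6 pericyte markers was 5.01 to 5.07 in SD hyperoxia, against 5.36 to 5.45 in SD room air, and 5.02 to 5.33 in F344 hyperoxia, against 5.25 to 5.26 in F344 room air. Of these 5, 4 estimates over both strains were negative and 0 were called by limma (1 had an unadjusted p under 0.05), with a median of -0.19. On day 5, where no clock gene was called, vascular marker means were lower under hyperoxia in both strains. Endothelial means were 4.84 to 4.85 against 5.25 to 5.32 in SD, and 4.80 to 4.86 against 5.01 to 5.35 in F344. Pericyte means were 4.76 to 4.95 against 5.26 to 5.28 in SD, and 4.85 to 4.88 against 5.08 to 5.63 in F344. All these vascular means lie near or below the array medians. The part of these markers in the clock gene differences was not tested.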

How the data were processed

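Retinal RNA pools were hybridised singly to 16 Affymetrix gene arrays, 2 for each of 8 groups. The authors deposited log2 expression values of 27342 probe sets, made with Partek 6.4 and RMA per the submitters' processing notes. RMA corrects background, quantile-normalizes arrays and summarises probes, so a shift shared by most transcripts would have been removed before deposit. Scanner files were not used here. The platform annotation gave 1 symbol to 15097 probe sets and several to 323, and it did not list 11922. Entrez identifiers linked 15067 of the sets with 1 symbol to the RefSeq table of GRCr8, which also gave the positions printed. Where a gene had several sets the one with the highest mean was kept, which left 14324 genes.

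The tests used limma 3.58.1 (R 4.3.3), with 1 mean per group on all 16 arrays, 8 residual and 7.41 prior degrees of freedom and Benjamini-Hochberg adjustment over all genes of a comparison. Genes with an adjusted p under 0.05 count as called. Shares of all genes called or passing use that adjusted threshold. They are not the matching share for a count at unadjusted p under 0.05. The ± after a difference is limma's moderated standard error, with 2 arrays in each group, and tests are two-sided. The number of arrays limits the precision. The script was tested on simulated data. All 10 clock genes are named, and for the 9 measured the 3 genes of highest Pearson's r. In the comparisons given for them, genes of the other clock, glucocorticoid-responsive, immediate early and hypoxia-responsive lists are named where called or among the 2 highest and 2 lowest, and Bmal1, Cry1 and Cry2 were named in addition. Marker lists are given by their means and counts. The members and lists were chosen with earlier results of these data known. The lists cover other clock genes, glucocorticoid-responsive, immediate early and hypoxia-responsive genes, and markers of retinal and neighbouring cells. Alternatives changed the choice of probe set, the genes tested, the low-level filter, the trend in the spread, array weights, centring, the replicate block, the promoter window and the arrays included.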

Additional observations from a re-analysis of the deposited data

How the results depend on the processing

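The counts of clock genes called changed with some settings. In F344 on day 6 the count was 1, and it was 0 with every probe set tested on its own, with a trend in the spread, with array weights, with arrays centred on their median and with only the 4 arrays compared. Over both strains on day 6 it was 3, and 1 with a trend and 0 with array weights. For the strain difference in room air it was 0, and 1 with array weights (Per2) and 1 with centring (Bhlhe41). For the day difference under hyperoxia it was 1, and 0 with every probe set tested on its own. The cause of these changes was not tested. The other 134 counts were within 1.5 times of their first value, and no estimate that passed the test changed sign. Centring moved the median of all genes by 0.10 in F344 on day 6, where Nr1d1 then differed by -0.63 (adjusted p = 0.0591), by -0.12 for the SD minus F344 difference in that effect and by 0.13 for the day difference of the effect in F344. Searching the whole promoter window changed no count of genes with a motif.

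Leaving out each array in turn gave counts of 1 to 5 among the 8 groups, 0 to 4 in F344 on day 6, 0 to 1 in SD on day 6 and 0 to 3 over both strains on day 6. It gave 0 to 1 for the day difference of the oxygen effect in F344, 0 to 1 for the strain and day differences in room air and 0 to 2 for the day difference under hyperoxia. It gave 0 to 3 for the day difference in F344 room air and 0 to 2 for its difference between strains. The other counts were 0 with each array left out. Where a group is left with 1 array, that array is assumed to vary like the other groups.

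The labels do not say whether same-numbered replicates share more than a number. In their deviations 8 of 28 pairs of groups correlated above 0.1, with r from -0.287 to 0.519. The highest was between SD room air of day 5 and of day 6, and its source was not tested. With the replicate block the counts were 4 among the 8 groups, 1 in F344 on day 6 (Nr1d1, adjusted p = 0.0477), 3 over both strains on day 6, 1 for the day difference under hyperoxia and 2 in F344 room air (Per3 at 0.0573), and 0 elsewhere. With 2 pools per group, no array of a group can be checked against more than 1 other.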

Other observations

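The means of the other marker lists over an array had these ranges over the 16 arrays: cones 7.36 to 7.80, ganglion cells 7.52 to 8.16, bipolar cells 6.13 to 7.31, Muller glia 8.18 to 8.61, astrocytes 5.38 to 5.67, microglia and macrophages 5.15 to 5.5, erythroid cells 4.98 to 6.07, and pigment epithelium and choroid 5.27 to 6.00.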
